A study of Mus musculus with 24 samples.

Results

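Pou5f1, Sox2, Nanog, Fgf4, Utf1, Lin28a, Esrrb, Zfp42, Dppa5a and Tdgf1 belong to the gene network that is active in pluripotent cells. They were taken from the count table by their gene symbol, and 10 of 10 were found among its 24537 genes. RNA was sequenced from whole EDL muscles, which are mostly fast-twitch, and whole SOL (soleus) muscles, which are mostly slow-twitch, of 2-month-old mice. There were 24 libraries, with 2 for each muscle, genotype and time point. All mice were heterozygous for a Dox-inducible cassette of Pou5f1 (Oct4), Sox2, Klf4 and Myc (OSKM) at Col1a1 and for a loxP-STOP-blocked rtTA at ROSA26, and all drank water with 1 mg/ml Dox, the muscles being taken after 2.5 days, after 5.5 days or after 8.5 days. The Cre+ mice (Acta1-Cre+/4Fhet) also carried Acta1-Cre, which removes the STOP sequence in myofibers, whereas the Cre- controls (Acta1-Cre-/4Fhet) did not. OSKM is thus driven in the myofibers of a muscle whose other cells were sequenced with them. Libraries lacking OSKM were dropped by the study as outliers, and the 5.5-day libraries, uneven in Pou5f1, are given apart here. In whole muscle, fewer cells of a type and less RNA per cell cannot be told apart.

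In embryonic stem cells, Oct4 and Sox2 bind DNA together and, with Nanog and Esrrb, sustain each other's transcription and that of many targets. Fgf4, Utf1, Lin28a, Zfp42, Dppa5a and Tdgf1 are among the genes that fall silent on differentiation, and their return is a usual sign that a reprogrammed cell has switched on its own network. In adult skeletal muscle these genes are silent or nearly so, except Esrrb, which belongs to the estrogen-related receptors that act on mitochondrial and oxidative genes. The comparison of Cre+ with Cre- muscles asked whether the endogenous targets followed the transgenic Pou5f1 and Sox2.

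At 2.5 and 8.5 days, Pou5f1 and Sox2, the members that the cassette itself carries, were higher in Cre+ than in Cre- muscles by the test. Libraries lacking OSKM had been dropped, so these calls are not independent of the choice of libraries. Nanog, Utf1 and Zfp42 had 0 to 2 counts in every library, including those with the most Pou5f1. Fgf4, Lin28a, Dppa5a and Tdgf1 had at most 19 counts in any library, and where they had enough counts for the test none was called between the genotypes. Esrrb was well expressed, was not called in any Cre+ to Cre- comparison, and had 9.12 to 17.6 FPKM in SOL against 1.06 to 1.98 FPKM in EDL.

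**Figure D1:**
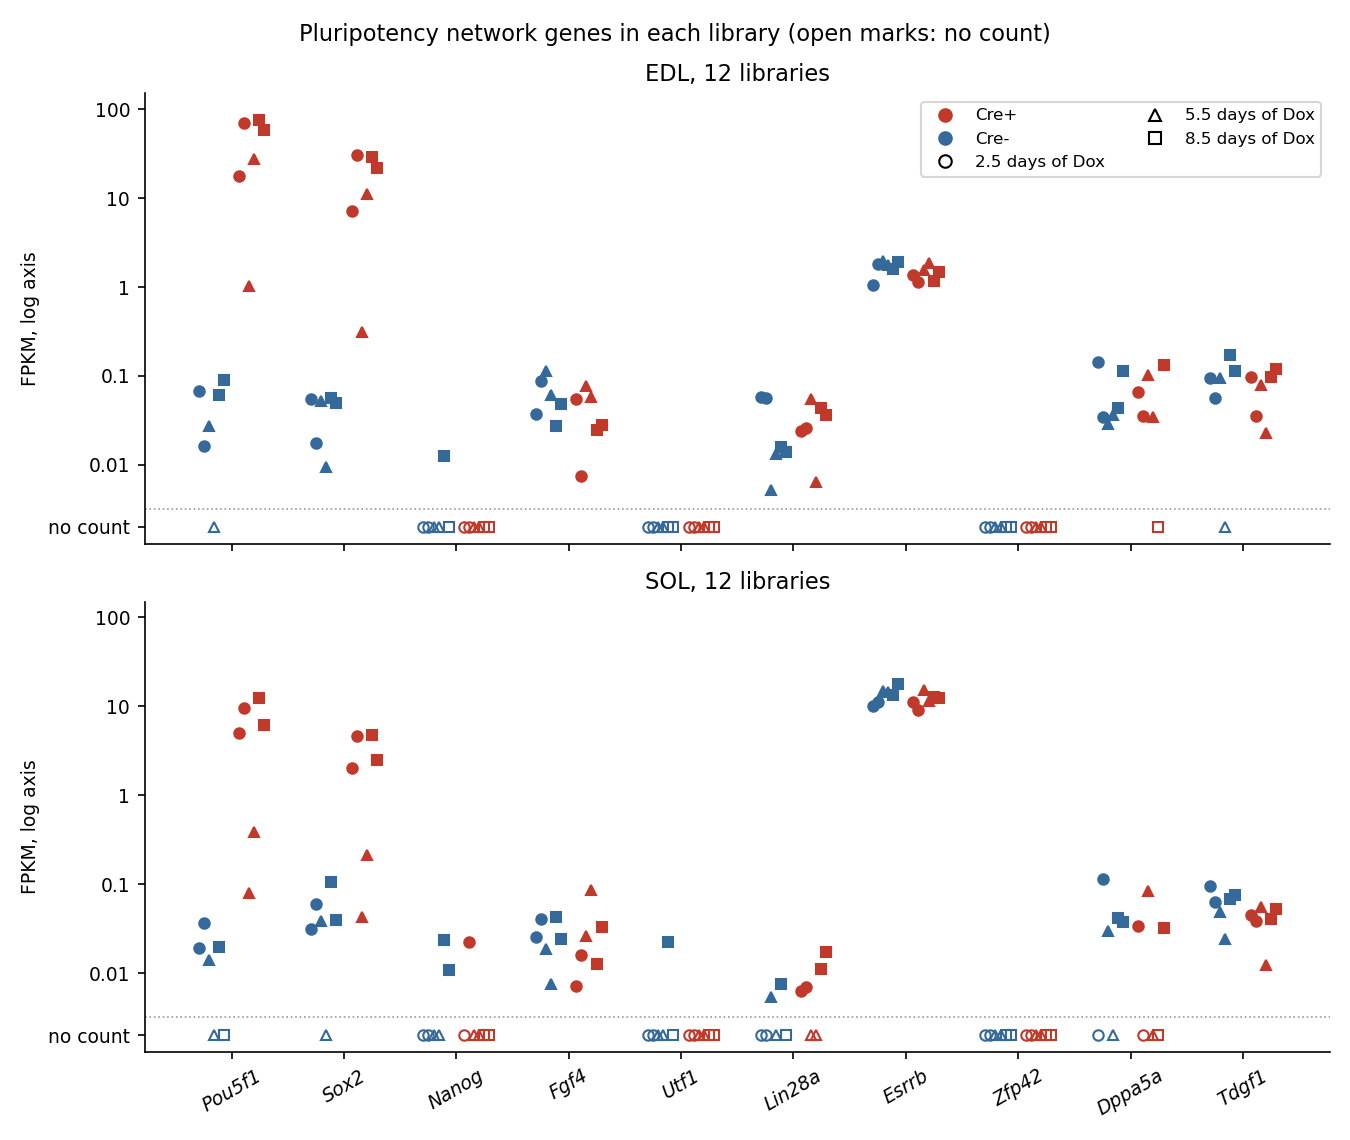
Levels of the 10 members in FPKM (each count divided by exon length and library total, log axis) in the 12 EDL libraries (top) and the 12 SOL libraries (bottom), with 1 mark per library, red for Cre+ and blue for Cre-, the shape giving the days of Dox, and open marks at the bottom for libraries without a count. Pou5f1 and Sox2 of the Cre+ libraries lie far above those of the Cre- libraries at 2.5 and 8.5 days, and Esrrb lies higher in SOL than in EDL.

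Total counts were between 36088781 and 54679082 per library (median 44243960), so a gene without a count could still be present at 0.0549 to 0.0831 CPM (3 counts per library, for counting error only). Myofiber markers were present throughout, and the summed level of 10 of them was between 45130 and 70120 FPKM in EDL Cre+ and between 68770 and 80340 FPKM in EDL Cre- libraries (n = 6 each). Of these 10, 4 fell and 0 rose in Cre+ EDL at 2.5 days, among them Acta1 (log2 fold change -1.16), and 3 fell and 1 rose at 8.5 days. Over all tested genes, 24% were called in EDL at 2.5 days and 14.1% at 8.5 days. The summed level of 6 epithelial markers was between 1.10 and 42.7 FPKM in EDL Cre+ and between 0.745 and 1.43 FPKM in EDL Cre- libraries (n = 6 each, 1 of the 6 markers without a count in Cre-). Of the 5 tested, Krt7 and Krt8 rose in Cre+ EDL at 2.5 days (list median log2 fold change 0.02). Krt7 alone rose at 8.5 days (list median 0.79), and 0 fell at either day. Over the 24 libraries Krt7 reached 35.6 FPKM and Krt8 6.21, and Krt19 1.48. Of 5 endothelial markers 4 fell in Cre+ EDL at 2.5 days, and 0 of the satellite cell, Schwann cell, fibroblast and macrophage markers were called in any of the comparisons at 2.5 or 8.5 days. The part of these marker changes in the results below was not tested.

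Pou5f1 (GRCm38, chr17:35506032-35510777, plus strand) encodes Oct4, the POU factor without which the pluripotent state is lost. In Cre+ EDL libraries it had 1129 and 4206 counts at 2.5 days and 5439 and 3683 counts at 8.5 days, and in Cre+ SOL libraries 313 and 531 counts at 2.5 days and 857 and 414 counts at 8.5 days. In Cre- EDL libraries it had 4 and 1 counts at 2.5 days and 3 and 5 counts at 8.5 days, and in Cre- SOL libraries 1 and 2 counts at 2.5 days and 1 and 0 counts at 8.5 days. Every Cre+ library of these days was far above every Cre- library. Scaled by exon length, EDL held 55.5 ± 26.5 FPKM with Cre and 0.0587 ± 0.0308 FPKM without it (SD, n = 4), and SOL held 8.26 ± 3.29 FPKM with Cre and 0.0187 ± 0.0148 FPKM without it (SD, n = 4). The groups did not overlap in EDL, as for 27.1% of tested genes with Cre+ higher, or in SOL, as for 7.14%. For Pou5f1 this separation is not independent of the choice of libraries, since those lacking OSKM had been dropped.

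Sox2 (chr3:34649995-34652460, plus strand) encodes the HMG-box partner of Oct4. It had 845 and 3355 counts in Cre+ EDL at 2.5 days and 3833 and 2534 at 8.5 days, against 2 to 6 counts in the Cre- EDL libraries of these days. In Cre+ SOL it had 228 and 469 counts at 2.5 days and 610 and 302 at 8.5 days, against 3 to 10 counts in Cre- SOL. For Sox2, too, the groups stayed apart in both muscles. Sox2 is a single-exon gene inside the long non-coding gene Sox2ot, which lies on the same strand. Sox2ot counts stayed between 5 and 75 in the 24 libraries. Whether counting used strand is not stated, and strand would not separate Sox2 from Sox2ot.

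In the test, 2 of the 4 members that passed the filter on low counts, Pou5f1 and Sox2, rose in Cre+ EDL at 2.5 days, where 24% of the 15372 genes tested were called and 13.8% were called higher. The log2 fold change of Pou5f1 was 9.63 ± 0.87 (SE, adjusted p = 1.74e-05) and that of Sox2 was 8.64 ± 0.88 (SE, adjusted p = 4.1e-05). The same members rose in EDL at 8.5 days, where 14.1% of genes were called and 7.63% higher, by 9.55 ± 0.82 and 8.71 ± 0.86 on the log2 scale (SE, adjusted p = 1.86e-05 and 4.44e-05). In SOL they rose at 2.5 days, where 0.384% of genes were called and 0.345% higher, by 7.78 ± 0.96 and 5.99 ± 0.87 (SE, adjusted p = 0.00391 and 0.0109), and at 8.5 days, where 0.631% were called and 0.332% higher, by 9.62 ± 1.08 and 5.59 ± 0.81 (SE, adjusted p = 0.00165 and 0.00828). Because the Cre- levels rest on so few counts, these folds are imprecise. With at most 5 counts of Pou5f1 and 10 of Sox2 per Cre- library, both passed the filter only through Cre+ libraries. The study had dropped libraries lacking OSKM, and the day uneven in Pou5f1 was left out of this fit. The calls of Pou5f1 and Sox2 are thus not independent of the filter or of the choice of libraries. The shares of all genes called are therefore no yardstick for them. As a ratio of summed counts per total, Pou5f1 was 966-fold higher in Cre+ EDL (95% counting interval 565 to 1814) and 446-fold higher in Cre+ SOL (174 to 1639). Sox2 was 510-fold higher in EDL (322 to 861) and 59.0-fold higher in SOL (39.2 to 93.4). With a library of 2.5 days left out, the EDL values ranged from 8.38 (without Cre+ replicate 2) to 10.86 (without Cre- replicate 1) for Pou5f1 and from 7.31 to 9.59 for Sox2 (without the same libraries), all called. In SOL at 2.5 days, both calls were lost without replicate 1 of the Cre- libraries (adjusted p = 0.102 for Pou5f1 and 0.170 for Sox2) or without replicate 2 (0.125 and 0.176). In SOL at 8.5 days, Sox2 was no longer called without Cre+ replicate 1 (adjusted p = 0.0675) or without Cre- replicate 2 (adjusted p = 0.151).

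Within the Cre+ mice, Pou5f1 was higher in EDL than in SOL by 2.49 ± 0.51 on the log2 scale at 2.5 days and by 2.80 ± 0.51 at 8.5 days (SE, adjusted p = 0.00267 and 0.00214), where 28.4% and 18.2% of genes were called. Sox2 was higher in EDL by 2.41 ± 0.55 and 2.76 ± 0.56 (SE, adjusted p = 0.00529 and 0.0039). Without EDL Cre+ replicate 2 of 2.5 days, the Pou5f1 value of that day was 1.24 (adjusted p = 0.0411). The Sox2 call at 2.5 days was lost without SOL Cre+ replicate 1 (log2 fold change 1.93, adjusted p = 0.0605) and without EDL Cre+ replicate 2 (1.09, adjusted p = 0.111). With EDL and SOL libraries paired by replicate number, in each of the 6 Cre+ pairs the EDL library had more Pou5f1 per length, 3.49 to 9.32 times as much at 2.5 and 8.5 days. Of the 4 members tested, 0 differed between muscles in their change from Cre- to Cre+ at 2.5 days (4.25% of genes called) or at 8.5 days (0.592%), and 0 at an unadjusted p under 0.05, by edgeR. For Pou5f1 and Sox2 that difference is set against Cre- levels of a few counts, and its SE was 2.56 for Pou5f1 and 1.76 for Sox2 at 2.5 days. Likewise, 0 of 4 differed between 2.5 and 8.5 days in either muscle (0% of genes called), and 0 at an unadjusted p under 0.05.

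At 5.5 days the levels were uneven. Pou5f1 had 64 and 1686 counts in the Cre+ EDL libraries and 4 and 22 in the Cre+ SOL libraries, against 0 to 2 in Cre-. Sox2 had 36 and 1248 counts in Cre+ EDL and 4 and 22 in Cre+ SOL, against 0 to 7 in Cre-. The library labelled Cre+ SOL replicate 1 thus lay within the range of all Cre- libraries for both genes (0 to 5 counts of Pou5f1 and 0 to 10 of Sox2). In EDL, Pou5f1 and Sox2 were called by edgeR's quasi-likelihood test (log2 fold change 9.59 and 7.27, adjusted p = 0.0225 and 0.046, 0.304% of genes called). In SOL 0 of 5 tested members were called by edgeR (0% of genes called), and 1, Fgf4, had an unadjusted p under 0.05 (log2 fold change 1.95, adjusted p = 1). Neither EDL call remained without Cre+ replicate 2, without Cre- replicate 1 or without Cre- replicate 2 (adjusted p = 0.183, 0.358 and 0.342 for Pou5f1).

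The counts do not separate cassette transcripts from those of the endogenous genes. In the 9 Cre+ libraries with at least 100 counts of each, the FPKM of Sox2 was between 0.376 and 0.483 times that of Pou5f1 (median 0.399), with a mean of 0.402 ± 0.0233 in EDL (SD, n = 5) and 0.417 ± 0.0440 in SOL (SD, n = 4). The lengths used, 1346 bases for Pou5f1 and 2463 for Sox2, are those of the whole exons, whereas a cassette holds the coding parts. Over the 12 Cre+ libraries log2 levels of Sox2 followed those of Pou5f1 with a Pearson r of 0.998. It is a description over libraries taken to come from 6 mice. The ratio thus stayed within a narrow range from 313 to 5439 counts of Pou5f1.

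**Figure D2:**
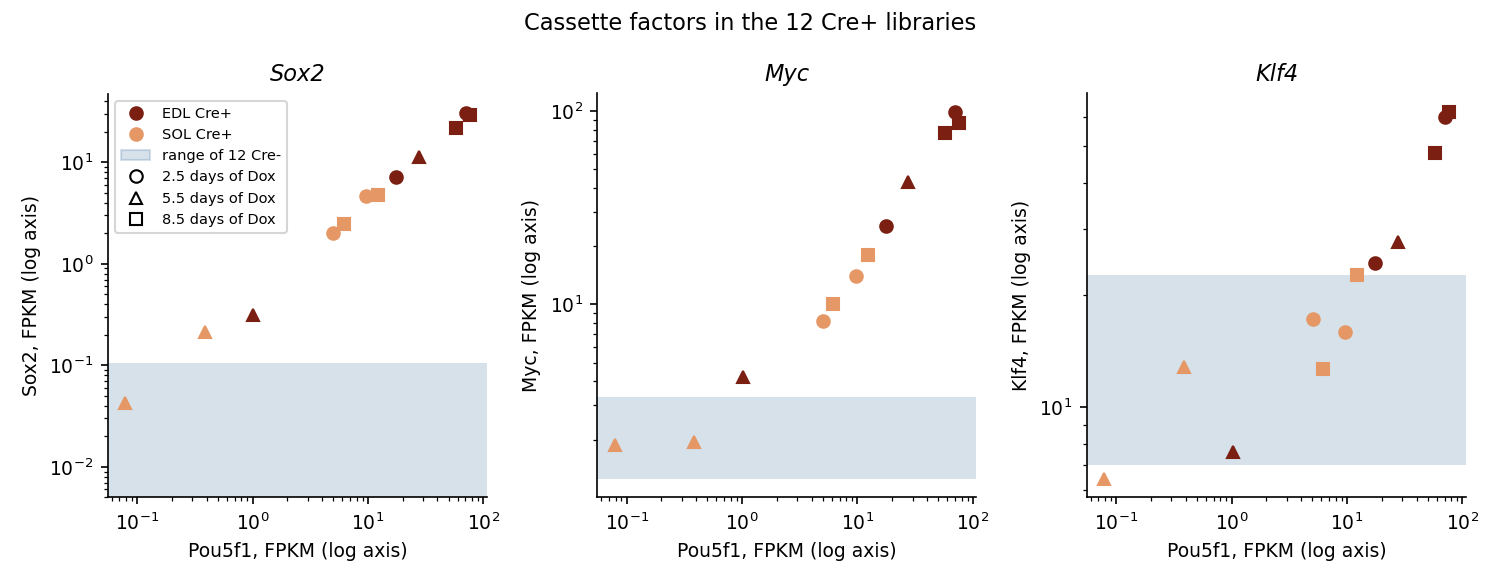
FPKM of Sox2 (left), Myc (middle) and Klf4 (right) against FPKM of Pou5f1 in the 12 Cre+ libraries, all axes logarithmic, dark for EDL and light for SOL, shapes for days of Dox, with the blue band spanning the 12 Cre- libraries (its lower edge is cut at the axis for Sox2, where a Cre- library had no count). Sox2 rises along with Pou5f1, while Klf4 in the Cre+ SOL libraries reaches 22.7 FPKM, beside 22.6 FPKM in the highest Cre- library.

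Klf4 and Myc, the other factors of the cassette, are expressed in muscle without it. Myc had 207 to 336 counts in Cre- EDL and 2908, 10544, 11056 and 8774 counts in Cre+ EDL at 2.5 and 8.5 days, a rise of 4.12 ± 0.52 and 4.65 ± 0.53 on the log2 scale (SE, adjusted p = 0.00016 and 0.000142). Klf4 rose by 2.02 ± 0.41 and 1.87 ± 0.41 in EDL (SE, adjusted p = 0.00319 and 0.0088). The Klf4 call was lost at 2.5 days without Cre+ replicate 2 (1.30, adjusted p = 0.0509), and at 8.5 days without Cre+ replicate 1 (1.74, adjusted p = 0.0667) or without Cre- replicate 1 (1.49, adjusted p = 0.0904). Neither passed the test in SOL. The log2 fold changes of Myc there were 2.18 at 2.5 days and 2.37 at 8.5 days (adjusted p = 0.0971 and 0.056), while Klf4 had 0.08 and -0.04 (adjusted p = 0.953 and 1.00). Over the 12 Cre+ libraries Myc was also, of 12741 genes compared, the gene most like Pou5f1 and Sox2 in log2 level (Pearson r = 0.971 and 0.972), followed by C2cd4c (0.955 and 0.954) and the potassium channel gene Kcnk5 (0.953 and 0.952). C2cd4c and Kcnk5, unlike Myc, are not in the cassette. Both rose in Cre+ muscle in each of the 4 comparisons at 2.5 and 8.5 days, C2cd4c by 2.33 to 6.35 and Kcnk5 by 2.32 to 4.79 on the log2 scale. They were picked by their likeness over Cre+ libraries that also enter these comparisons, so the rise is not independent of that choice.

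Nanog (chr6:122707565-122714633, plus strand), a homeobox factor of the core network and a known target of Oct4 and Sox2, had 0 counts in all 6 Cre+ EDL libraries and 1 count in 1 of the 6 Cre- EDL libraries, at 8.5 days. In SOL it had 2 counts in 1 of 6 Cre+ libraries and 2 and 1 counts in the Cre- libraries at 8.5 days. The 4 Cre+ EDL libraries of 2.5 and 8.5 days together held 0 counts of Nanog among 192649078, which allows up to 0.00705 FPKM (3 counts over the group), beside 14457 counts of Pou5f1. In the 300 bases around the start of the transcript counted here (250 before and 50 after), from RefSeq's GRCm38.p6, the letters CATTGT and ATGCAAA stand side by side, 1 base apart, on the minus strand, at positions -151 to -138 from the start. Both are shortened forms, CATTGT being the Sox letters CATTGTT and ATGCAAA the octamer ATGCAAAT, each without its last base. CATTGT with the whole octamer 1 base after it was in 0 of 32851 such windows. The shorter pair, searched for after that was seen, was in 2 overlapping windows of Nanog starts, which share this 1 site. Because the letters were shortened after the first search, the rarity of the pair is not a test. The pair is shown in capitals because it resembles the paired motif that Oct4 and Sox2 are known to bind, in a gene with 0 counts in the libraries where their counts were highest.
Nanog, chr6:122707315-122707614, plus strand: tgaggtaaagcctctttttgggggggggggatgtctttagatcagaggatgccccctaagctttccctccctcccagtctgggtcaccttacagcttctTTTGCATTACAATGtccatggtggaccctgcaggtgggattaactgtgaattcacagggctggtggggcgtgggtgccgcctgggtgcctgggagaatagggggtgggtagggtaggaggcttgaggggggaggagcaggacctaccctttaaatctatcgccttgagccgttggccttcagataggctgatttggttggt

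Zfp42 (Rex1, chr8:43295067-43307009, minus strand), a zinc finger gene used as a marker of the naive pluripotent state, had 0 counts in all 24 libraries. The 4 Cre+ libraries of 2.5 and 8.5 days allow up to 0.00868 FPKM in EDL and 0.00884 FPKM in SOL. Utf1 (chr7:139943856-139945112, plus strand), a chromatin-bound factor of embryonic stem cells, had 1 count in the 24 libraries, and that was in a Cre- SOL library. The same Cre+ libraries allow up to 0.0135 FPKM of Utf1 in EDL and up to 0.0137 FPKM in SOL. The window around the Zfp42 start held the full octamer ATGCAAAT, on the opposite strand to the gene (ATTTGCAT as printed), and it is shown as the only member window with these 8 letters.
Zfp42, chr8:43306960-43307259, minus strand: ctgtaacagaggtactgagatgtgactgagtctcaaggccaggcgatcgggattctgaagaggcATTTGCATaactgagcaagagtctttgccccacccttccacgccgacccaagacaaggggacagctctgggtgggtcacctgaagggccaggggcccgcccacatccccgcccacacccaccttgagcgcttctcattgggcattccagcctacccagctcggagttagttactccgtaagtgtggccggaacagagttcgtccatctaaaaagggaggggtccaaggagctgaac

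RefSeq windows were matched for 9 of the 10 members (12 windows, some genes having several starts). Both strands were searched. ATGCAAAT was in 1.74% of all windows, the Sox letters CATTGTT in 3.78% (of the members, in a window of Pou5f1), the E-box CACGTG in 7.15% (no member) and the Klf letters GGGTGTG in 7.95% (Esrrb and Zfp42). A match is a stretch of letters, not a bound site, and these windows do not hold distal enhancers.

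Fgf4 (chr7:144861386-144865245, plus strand) encodes the growth factor through which embryonic stem cells signal to themselves, and its enhancer is a classic target of Oct4 and Sox2. It had 8, 1, 4 and 4 counts in the Cre+ EDL libraries of 2.5 and 8.5 days and 5, 12, 3 and 6 in Cre- EDL. In SOL it had 1, 2, 2 and 5 counts in Cre+ and 3, 5, 5 and 3 in Cre-. The groups overlapped in both muscles, and the difference in mean CPM did not pass the test (exact two-sided permutation test of 4 against 4 libraries, p = 0.257 in EDL and 0.0857 in SOL, smallest possible p 0.0286). At 5.5 days it had 11 and 8 counts in Cre+ EDL, 19 and 8 in Cre- EDL, 3 and 11 in Cre+ SOL and 3 and 1 in Cre- SOL, and among Cre- muscles of that day it was called higher in EDL than in SOL (log2 fold change 2.76 ± 0.83, SE, adjusted p = 0.0221, 19.8% of genes called).

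Tdgf1 (Cripto, chr9:110939608-110946158, minus strand), the co-receptor of Nodal, had 9, 3, 10 and 11 counts in Cre+ EDL and 8, 5, 12 and 9 in Cre- EDL at 2.5 and 8.5 days. In Cre+ SOL it had 4, 3, 4 and 5 counts and in Cre- SOL 7, 5, 5 and 6. In SOL all 4 Cre+ libraries lay below all 4 Cre- libraries in CPM (exact two-sided permutation test, p = 0.0286, the smallest possible, not corrected for the number of members), as did 1.35% of the tested genes. The sums were 16 and 23 counts, a ratio of 0.587 (95% counting interval 0.290 to 1.16). In the fit Tdgf1 was not called in SOL (log2 fold change -1.04 at 2.5 days and -0.65 at 8.5 days, adjusted p = 0.516 and 0.978) or in EDL (-0.47 and -0.55, adjusted p = 0.577 and 0.523).

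Lin28a (chr4:134003330-134018816, minus strand) encodes an RNA-binding protein that blocks maturation of the let-7 microRNAs. It had 4, 4, 8 and 6 counts in Cre+ EDL and 9, 9, 2 and 2 in Cre- EDL at 2.5 and 8.5 days (exact permutation test, p = 0.714). Cre+ was thus lower at 2.5 days and higher at 8.5 days, and the test, which pools the days, cannot show a change on either. Without the filter on low counts, the log2 fold change was -1.50 at 2.5 days and 1.21 at 8.5 days. Neither was called by edgeR (adjusted p = 0.207 and 0.492). In SOL it had 1, 1, 2 and 3 counts in Cre+ and 0, 0, 1 and 0 in Cre-, with overlapping groups in CPM and a ratio of 5.91 (95% counting interval 0.759 to 266, exact permutation test, p = 0.0857). Dppa5a (chr9:78367054-78368199, minus strand), an RNA-binding protein of early embryos, had 0 to 4 counts in every library, with sums of 7 in Cre+ and 9 in Cre- EDL (exact permutation test, p = 0.571) and 2 and 5 in SOL (p = 0.200). RefSeq lists pseudogenes of Pou5f1, Nanog and Dppa5a, and the counts hold unique alignments alone, so the levels of these members are uncertain to that extent.

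**Figure D3:**
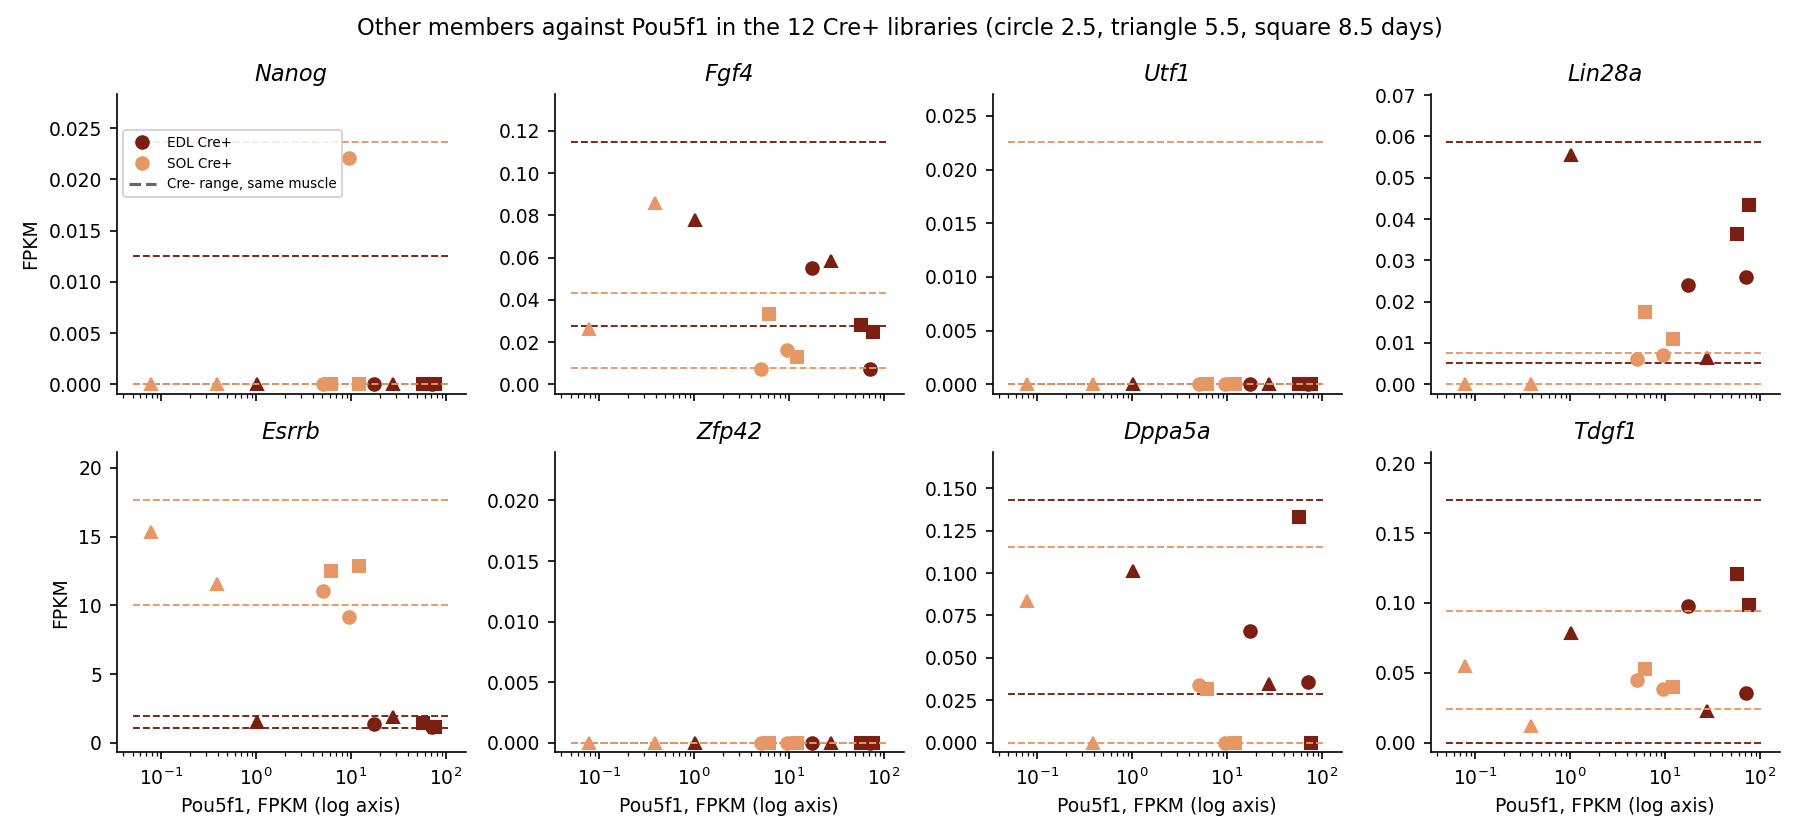
FPKM of the 8 members outside the cassette (linear axes, each with its own scale) against FPKM of Pou5f1 (log axis) in the 12 Cre+ libraries, dark for EDL and light for SOL, with dashed lines at the lowest and highest Cre- library of the same muscle. Nanog and Utf1 have no count in any Cre+ EDL library and Zfp42 in none of the libraries, and the Cre+ libraries with 57.7 to 76.2 FPKM of Pou5f1 lie at or below the top of the Cre- range for every one of these members.

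Set in the order of Pou5f1, Lin28a, Dppa5a and Tdgf1 showed no steady order in EDL. Fgf4 counts were mostly lower where Pou5f1 was higher. From the most to the least Pou5f1, the Cre+ EDL libraries had 4, 1, 4, 8, 8 and 11 counts of Fgf4. The order includes the 5.5-day libraries and was not tested. Of the Cre+ EDL libraries, the one with the most Pou5f1 (76.2 FPKM) had 4 counts of Fgf4, 8 of Lin28a and 10 of Tdgf1. The one with the least (1.02 FPKM, at 5.5 days) had 11, 9 and 7 counts. Esrrb had 266 counts in the former and 307 in the latter. Of the Cre+ SOL libraries, the one with the most Pou5f1 (12.2 FPKM) had 2 counts of Fgf4, 2 of Lin28a and 4 of Tdgf1. The one with the least (0.0786 FPKM, at 5.5 days) had 3, 0 and 4 counts. Lin28a had 1 to 3 counts in the Cre+ SOL libraries of 2.5 and 8.5 days and 0 in those of 5.5 days, none above the floor of 3 counts.

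Esrrb (chr12:86361117-86521628, plus strand) is an orphan nuclear receptor that can stand in for Nanog in embryonic stem cells and is also expressed in oxidative tissues. At 2.5 days it had 1.37 and 1.14 FPKM in Cre+ EDL and 1.06 and 1.82 FPKM in Cre- EDL, and 11.0 and 9.12 FPKM in Cre+ SOL and 10 and 11.2 FPKM in Cre- SOL. At 8.5 days it had 1.17 and 1.47 FPKM in Cre+ EDL and 1.61 and 1.91 FPKM in Cre- EDL, and 12.9 and 12.5 FPKM in Cre+ SOL and 13.3 and 17.6 FPKM in Cre- SOL. The genotypes overlapped at 2.5 days in both muscles, and at 8.5 days both Cre+ libraries lay below both Cre- libraries in each muscle, an order that 15.5% of tested genes had in EDL and 14.5% in SOL. All 12 SOL libraries were above all 12 EDL libraries (9.12 to 17.6 against 1.06 to 1.98 FPKM).

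**Figure D4:**
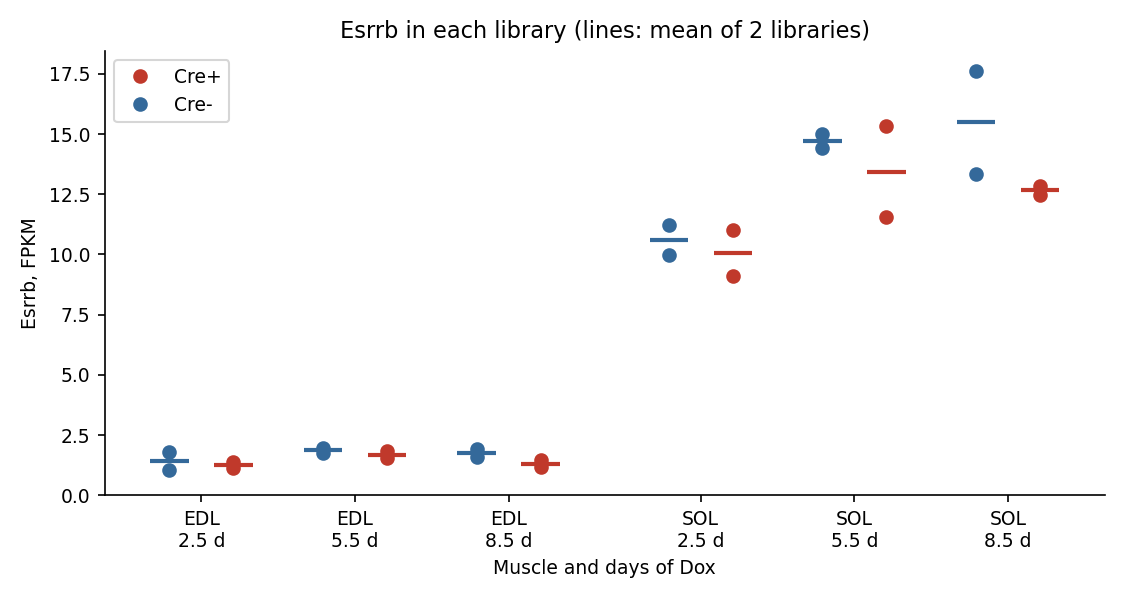
Esrrb in FPKM (linear axis from 0) in each of the 24 libraries, by muscle and days of Dox, blue for Cre- and red for Cre+, with a line at the mean of the 2 libraries of a group. The lowest SOL library, at 9.12 FPKM, lies above the highest EDL library, at 1.98 FPKM.

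Cre+ over Cre-, the log2 fold change of Esrrb was -0.52 ± 0.25 (SE, adjusted p = 0.135) and -0.59 ± 0.24 (SE, adjusted p = 0.123) in EDL at 2.5 and 8.5 days, and -0.23 ± 0.23 and -0.32 ± 0.23 in SOL (SE, adjusted p = 0.720 and 0.938), so it was not called. Without Cre- EDL replicate 1 of 2.5 days it was (-0.88, adjusted p = 0.0214), and without Cre- EDL replicate 2 it was -0.05 (adjusted p = 0.921). The difference between the muscles was called in each genotype and at each day. EDL over SOL, it was -3.07 ± 0.25 in Cre+ and -2.77 ± 0.25 in Cre- mice at 2.5 days (SE, adjusted p = 6.23e-06 and 1.38e-05), and -3.32 ± 0.25 and -3.04 ± 0.25 at 8.5 days (SE, adjusted p = 6.28e-06 and 9.26e-06). Of the Cre- comparisons, 16% of genes were called at 2.5 days and 18.2% at 8.5 days. The values at 5.5 days were -2.96 in Cre+ and -2.87 in Cre- mice (adjusted p = 2.65e-07 and 2.74e-07, 17.2% and 19.8% of genes called), also with 0 calls of Esrrb between genotypes. Its relative Esrra, a regulator of mitochondrial genes, fell by 0.53 ± 0.15 on the log2 scale in Cre+ EDL at 8.5 days (SE, adjusted p = 0.0298) and had -0.25 at 2.5 days (adjusted p = 0.239). Esrra is named here after its values were seen.

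Beyond the members, 93 other genes of the pathway in 7 lists were looked at, and 62 passed the filter on low counts. The other 31 had at most 14 counts in any library, and 5 of them had none. In Cre+ EDL 7 of the 62 rose and 16 fell at 2.5 days (24% of all genes called), and 3 rose and 7 fell at 8.5 days (14.1%). Their median log2 fold change was -0.33 and -0.19, beside -0.05 and -0.02 over all tested genes. In SOL 0 of the 62 were called at either day by edgeR, with 13 at 2.5 days and 4 at 8.5 days at an unadjusted p under 0.05, and with 3 and 0 called by DESeq2 on the same 16 libraries. These directions depend on the scaling. With library size alone, the median of all genes moved up by 0.33 in EDL at 2.5 days, 0.18 in EDL at 8.5 days and 0.15 in SOL at 2.5 days. The EDL calls then became 14 up and 8 down at 2.5 days and 7 up and 1 down at 8.5 days, so falls are relative to the bulk of genes. Many of these calls were lost with 1 library left out. Without Cre+ EDL replicate 2 of 2.5 days, 9 of the 62 were called instead of 23, without Cre- replicate 1 10, and without Cre- replicate 2 12. At 8.5 days 2 were called instead of 10 without Cre+ replicate 1, and 4 without Cre+ replicate 2. Of the companions named below, Lefty1, Alpl, Sox17, Phc1, Smad3, Etv5 and Tfcp2l1 at 2.5 days and Lefty1 and Smad3 at 8.5 days were called with each of the 4 EDL libraries of the day left out in turn. Dusp6, Fgfr3 and Sall4 at 2.5 days and Mycn and Etv5 at 8.5 days were called in 0 of these 4 fits. At 2.5 days the calls of Nacc1, Acvr1b, Upp1, L1td1 and Dis3l2 were lost without Cre+ replicate 2 or Cre- replicate 1, the last 3 also without Cre- replicate 2. Those of Tet1 and Mycn were lost without replicate 1 of either genotype, that of Fgfr4 without replicate 2 of either, that of Gbx2 in each fit but the one without Cre- replicate 1, and that of Arid3a in each but the one without Cre- replicate 2. At 8.5 days the calls of Alpl and Fgfr3 were lost in each fit but the one without Cre- replicate 1, that of Arid3a in each but the one without Cre- replicate 2, and that of Fgfr1 without replicate 1 of either genotype.

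Among other targets and markers of pluripotent cells, 3 of 11 tested genes rose and 3 fell in EDL at 2.5 days (24% of all genes called). At 8.5 days 0 rose and 1, Alpl, fell (14.1%), so neither Tet1 nor Upp1 was called then. The list medians were -0.42 and 0.63 on the log2 scale. L1td1 (chr4:98726754-98738486), an RNA-binding protein gene of embryonic stem cells, had 12 and 85 counts in the Cre+ EDL libraries of 2.5 days and 1 and 0 in Cre- (adjusted p = 0.0183). It had 7 and 0 counts at 8.5 days and 0 counts in the 4 EDL libraries of 5.5 days. The library with 85 counts is Cre+ replicate 2. L1td1 passed the filter on low counts only through the Cre+ EDL libraries of 2.5 days, so its call is not independent of the filter. Tet1, which oxidises methylated cytosine, had 791 and 610 counts in Cre+ EDL and 182 and 234 in Cre- EDL at 2.5 days, a rise of 1.38 ± 0.35 on the log2 scale (SE, adjusted p = 0.0115), and 1.24 in SOL (adjusted p = 0.156). Upp1, a uridine phosphorylase, had 48 and 71 counts against 12 and 17 and rose by 1.66 ± 0.52 (SE, adjusted p = 0.0307). Alpl, the alkaline phosphatase stained for in pluripotent colonies, fell by 1.18 ± 0.21 at 2.5 days and by 0.80 ± 0.21 at 8.5 days in EDL (SE, adjusted p = 0.00138 and 0.0203), and Phc1, a Polycomb subunit, fell by 0.96 ± 0.20 at 2.5 days (SE, adjusted p = 0.00389).

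Of 14 tested transcription factors of the network outside the members, 2 rose and 3 fell in EDL at 2.5 days (24% of all genes called). At 8.5 days 1 rose and 2 fell (14.1%). Mycn, a relative of Myc, had 60 and 47 counts in Cre+ and 13 and 25 in Cre- EDL at 2.5 days, and 133 and 118 against 35 and 46 at 8.5 days. It rose by 1.12 ± 0.32 and 1.08 ± 0.29 on the log2 scale (SE, adjusted p = 0.0202 and 0.0252), calls kept under 7 and 6 of 10 other settings. Nacc1, a partner of Oct4 and Nanog, rose by 0.74 ± 0.19 at 2.5 days (SE, adjusted p = 0.0106). Tfcp2l1, a factor of the naive state, had 125 and 120 counts in Cre+ and 307 and 292 in Cre- EDL at 2.5 days and fell by 1.66 ± 0.30 (SE, adjusted p = 0.00139). Gbx2 had 2 and 2 counts against 5 and 17 (adjusted p = 0.0369), and Sall4 fell by 0.82 ± 0.27 (SE, adjusted p = 0.038), a call kept under 5 of 10 other settings.

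**Figure D5:**
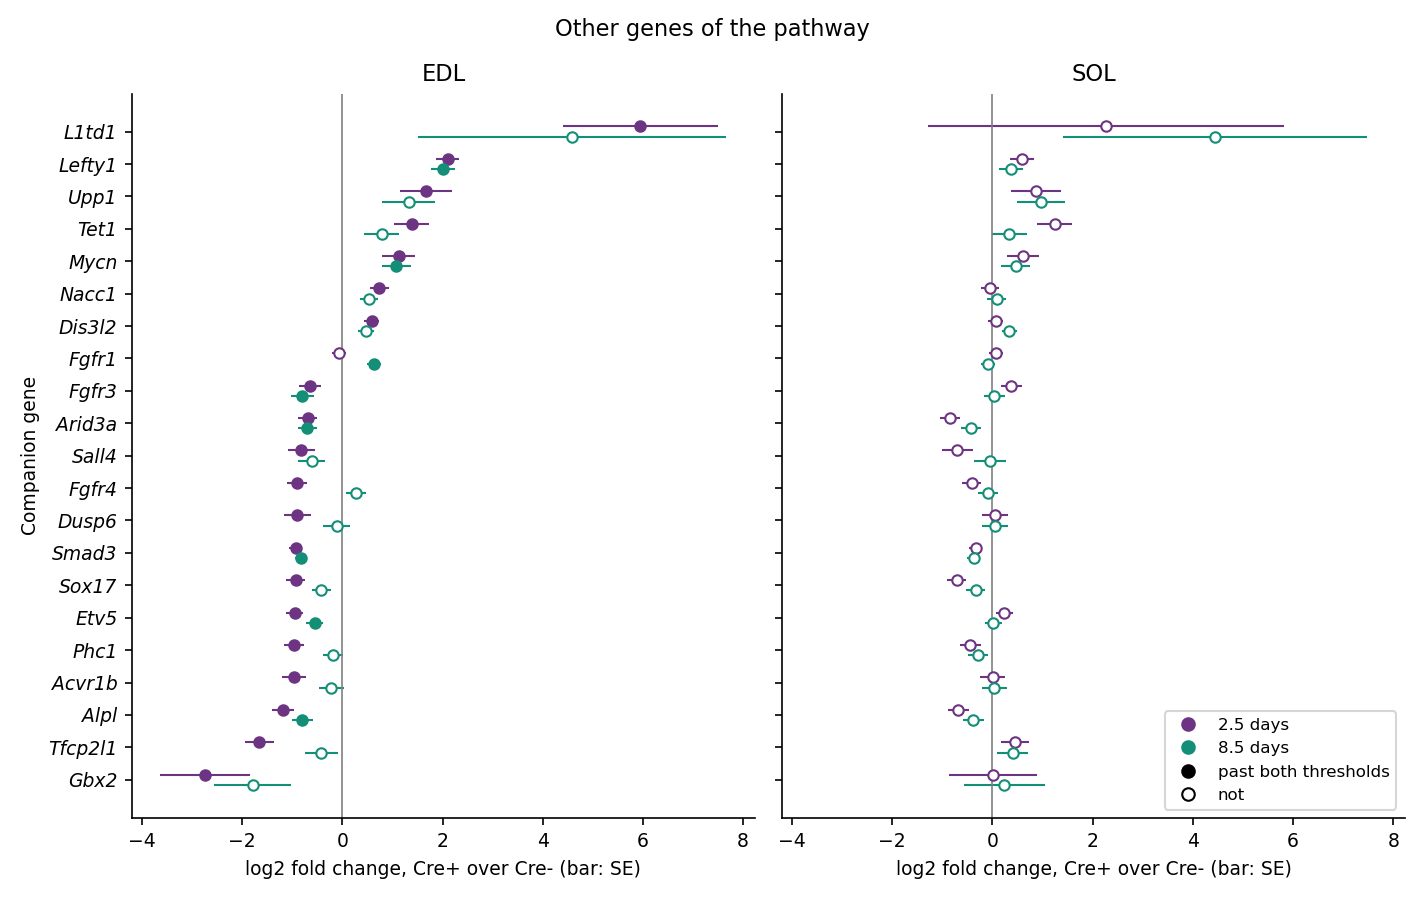
Fitted log2 fold changes of Cre+ over Cre- (horizontal axis, bars for the SE) of 21 companion genes in EDL (left) and SOL (right) at 2.5 days (purple) and 8.5 days (green), filled where past both thresholds. In EDL, Lefty1 and Mycn are past the thresholds above 0 at both days and Smad3, Alpl, Arid3a, Etv5 and Fgfr3 below 0 at both days, no mark is filled in SOL, and the L1td1 values rest on 0 or 1 counts in Cre-.

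In the Nodal and activin pathway, to which Tdgf1 belongs, 1 of 10 tested genes rose and 2 fell in EDL at 2.5 days (24% of all genes called). At 8.5 days 1 rose and 1 fell (14.1%). Lefty1 (chr1:180935022-180938401), a secreted antagonist of Nodal that binds Cripto, had 341 and 532 counts in Cre+ and 84 and 74 in Cre- EDL at 2.5 days and 314 and 285 against 49 and 52 at 8.5 days. It rose by 2.10 ± 0.23 and 2.01 ± 0.24 on the log2 scale (SE, adjusted p = 7.97e-05 and 0.000199), and also at 5.5 days its 111 and 155 counts lay above 50 and 35 in Cre-. In the uneven EDL libraries of 5.5 days, 2 companions were called, Lefty1 and Mycn, both higher (0.304% of genes called). In SOL Lefty1 had 124 and 109 counts against 68 and 59 at 2.5 days, and the change of 0.58 was not called (adjusted p = 0.311). Smad3, which carries the signal to the nucleus, fell by 0.93 ± 0.13 and 0.83 ± 0.13 in EDL (SE, adjusted p = 0.000248 and 0.00105), and the receptor gene Acvr1b fell by 0.96 ± 0.25 at 2.5 days (SE, adjusted p = 0.0117).

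Of 12 FGF receptors and response genes, which lie downstream of ligands such as Fgf4, 0 rose and 6 fell in EDL at 2.5 days (24% of all genes called). At 8.5 days 1 rose and 2 fell (14.1%). Etv5, an ETS factor, fell by 0.95 ± 0.17 and 0.55 ± 0.17 (SE, adjusted p = 0.00139 and 0.0448), with the call at 8.5 days kept under 4 of 10 other settings. Dusp6, a phosphatase that ERK signalling induces, fell by 0.90 ± 0.26 at 2.5 days (SE, adjusted p = 0.0235). The receptor genes Fgfr4 and Fgfr3 fell by 0.90 and 0.65 at 2.5 days (adjusted p = 0.00494 and 0.0432), the latter call kept under 3 of 10 other settings, Fgfr3 fell by 0.80 at 8.5 days (adjusted p = 0.0317), and Fgfr1 rose by 0.64 at 8.5 days (adjusted p = 0.00925). With library size alone, Etv5 and Fgfr4 were still called at 2.5 days, whereas Dusp6, Fgfr3, Spry1 and Spry2 were not, and at 8.5 days Etv5 and Fgfr3 were not. The antagonist genes Spry1 and Spry2 are named here after their values were seen.

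Of 6 tested genes of the Lin28 and let-7 list, the exonuclease gene Dis3l2 rose by 0.59 (adjusted p = 0.0116) and Arid3a fell by 0.69 at 2.5 days in EDL (adjusted p = 0.0177), and Arid3a fell by 0.70 at 8.5 days (adjusted p = 0.027). Over all genes, 24% were called in EDL at 2.5 days and 14.1% at 8.5 days. Of 7 other POU and Sox factors, 1 was called in EDL at 2.5 days, the endothelial and endodermal factor Sox17, which fell by 0.93 ± 0.19 (SE, adjusted p = 0.00298). The endothelial markers Egfl7, Pecam1 and Cdh5 fell by 0.73, 0.52 and 0.54 in the same comparison. Of the germ cell markers 0 of 2 tested were called in any of the 4 comparisons.

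Of the genes next to the members on the chromosomes, 21 were tested, and 1 rose and 1 fell in EDL at 2.5 days (24% of genes called). Oraov1, 49.95 kb from Fgf4, rose by 0.92 ± 0.22 (SE, adjusted p = 0.00741), a call lost without Cre+ replicate 2 or Cre- replicate 1, and Lrrc2, 5.387 kb from Tdgf1, fell by 0.90 ± 0.18 (SE, adjusted p = 0.00262). Of these neighbours 0 were called by edgeR in EDL at 8.5 days or in SOL.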

How the data were processed

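Poly(A) RNA from whole muscles was sequenced as stranded single-end reads. The authors aligned reads to mm10 (GRCm38) with STAR (2.5.3a, FastQC 0.11.2 listed in the submitters' processing notes) and deposited raw counts of reads aligned uniquely to RefSeq exons, made with HOMER. The strand setting of the counting is not given in the sources used here.

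Samples were grouped by the labels' muscle, genotype and days. Counts were tested with edgeR 4.0.16 (R 4.3.3, limma 3.58.1) by its quasi-likelihood test, with TMM scaling and filterByExpr at a minimum count of 10, in 1 fit of the 16 libraries of 2.5 and 8.5 days with a mean per group (15372 genes). Values at 5.5 days are from a fit of all 24 libraries (15478 genes). A gene was called at a Benjamini-Hochberg adjusted p under 0.05 over all genes tested and an absolute log2 fold change over 0.5. FPKM were computed from counts, the deposited exon lengths and the total count of each library. Sums of counts were compared by their ratio with an exact 95% interval, which covers counting error only, and low members also by an exact permutation test (Python 3.11.15, scipy 1.17.1). The fit was tested on simulated data. Alternatives used DESeq2 1.42.0 and other scalings, filters, sample sets and blocks.

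The members and gene lists were chosen with earlier results of these data known. The text names all members, Klf4 and Myc, up to 5 called genes of each list with the largest change, the 3 most abundant markers of a cell type, called neighbours, and the 3 genes most like Pou5f1 or Sox2 by Pearson r of log2 CPM (prior count 2, mean of at least 1 CPM) over the 12 Cre+ libraries. The marker lists covered myofibers, satellite cells, Schwann cells, epithelium, endothelium, fibroblasts and macrophages. Same-numbered EDL and SOL libraries deviated together in each of the 6 genotype and day groups (r between 0.173 and 0.445). The numbers were therefore taken to pair the muscles of a mouse, which the labels do not state. Those of Cre+ and Cre- mice did not (-0.169 to 0.0578). That replicates are separate animals is not stated in the labels for each library, and p-values measure the spread between libraries.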

Additional observations from a re-analysis of the deposited data

Results flagged for a closer look

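In 4 groups of 4 libraries (2.5 and 8.5 days), 1 library held all the counts of a member while the other 3 had none. Nanog had 0.0125 FPKM (1 count) in EDL Cre- replicate 1 of 8.5 days and 0.0221 FPKM (2 counts) in SOL Cre+ replicate 2 of 2.5 days. Utf1 had 0.0226 FPKM (1 count) and Lin28a 0.00751 FPKM (1 count) in SOL Cre- replicate 1 of 8.5 days. In all, 40 groups were looked at. The criterion singles out about 1 in 20 groups of continuous values by chance, a rate that does not apply here, since a group with 1 count in all must have it in 1 library. With 1 or 2 counts, each of these values is below the 3 counts taken as the floor of a library.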

How the results depend on the processing

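Of the counts of called genes, 223 stayed within 1.5 times the reported count and 27 did not. Of the values of single genes, 688 kept direction and side of the thresholds, 130 were no longer past them, 1 passed them (Esrrb in EDL at 2.5 days) and 6 turned sign. The cause was not tested. Called companions in EDL at 2.5 days (23) became 13 in a fit of the 4 libraries compared, 8 at an absolute log2 fold change over 1, and 9 to 17 with a library left out. In EDL at 8.5 days (10) they became 4 with DESeq2 on 4 libraries, 2 in edgeR's fit of 4, 3 in a fit of the 8 libraries of the muscle, 2 at a change over 1, and 2 to 11 with a library left out. In SOL at 2.5 days (0) they became 1 in a fit of all 24 libraries, 3 and 5 with DESeq2 on 16 and on 4 libraries, and 1 in edgeR's fit of 4. Called members in SOL at 2.5 days (2) became 1 in the fit of all 24 and 0 to 2 with a library left out. At 8.5 days (2) they became 1 in the fit of all 24, 0 in the fit of 4, and 1 to 2 with a library left out. In EDL at 5.5 days (2) they became 0 in a fit of the 8 libraries of that day and 0 to 2 with a library left out. Between Cre- muscles at 2.5 days (1) they became 2 without the filter on low counts. The member gained was Lin28a, higher in EDL than in SOL by 6.34 on the log2 scale (edgeR, adjusted p = 0.00685), a fold that rests on few counts. The signs that turned were of log2 fold changes never called, all with a library left out. With each library left out in turn, Tdgf1 ran from -1.43 to 0.0932 in EDL at 2.5 days, from -1.24 to 5.25 in EDL at 5.5 days (0.455 in another) and from -1.55 to 0.489 in SOL at 5.5 days (0.357 in another), and Fgf4 ran from -0.879 to 0.00504 in EDL at 5.5 days. Where a library was left out of a group of 2, the other was taken to vary like the remaining groups. Fgf4, not tested in the reported fit, was called in EDL at 2.5 days without Cre+ replicate 1 (-3.27, adjusted p = 0.0485). With the replicate number as a block for Cre+ and Cre- libraries, 2 members were called in each of the 4 comparisons, and 21 and 8 companions in EDL and 0 and 0 in SOL. Blocking by mouse, taken from the replicate number, changed no count of called members between muscles. Members with a few counts per library are limited by depth.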
